A study of Mus musculus with 10 samples.

Results

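Figla, Nobox, Sohlh1, Sohlh2, Lhx8 and Taf4b are the genes of 6 transcription factors that build up the oocyte's own expression programme when a mouse oocyte enters its follicle and grows. They were taken by symbol from a table of 24453 gene symbols, in which each of the 6 has 1 row, and 5 of them reached the mean of 0.5 RPKM (read numbers divided by transcript length and by the reads of the library) that was needed for a test across genes. Their levels were followed in germinal vesicle oocytes, the grown oocytes that still wait in the prophase of meiosis I, with and without the histone H3 lysine 9 methyltransferase gene Setdb1. Oocytes of 4 mutant mice carried a floxed and a deleted Setdb1 allele with the Zp3-cre transgene (f/-; Zp3-cre). The 6 controls were of 2 genotypes. In 4 of them a wild-type allele stood beside the floxed one, with the same transgene (f/+; Zp3-cre), and 2 had the alleles of the mutants but no Cre (f/-), so that a control oocyte of either genotype is left with a single working allele. All mice were C57Bl/6J, of an age that the labels do not state, and each library came from a pool of 16 oocytes of 1 mouse, freed of surrounding cells and kept in medium with milrinone, which holds meiosis back. The Zp3 promoter becomes active in oocytes that have begun to grow, so the deletion comes after the stage at which most of these factors are first needed.

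FIGLA, SOHLH1 and SOHLH2 are basic helix-loop-helix (bHLH) proteins, which bind DNA as dimers at E-boxes, short sites of the form CANNTG. NOBOX and LHX8 are homeodomain proteins, and LHX8 also has LIM domains that hold cofactors, while TAF4B is a gonad-enriched subunit of TFIID, the complex that sets RNA polymerase II on promoters. In mouse ovaries SOHLH1 and SOHLH2 act in the germ cells of newborns and in primordial follicles, upstream of Lhx8, Figla and Nobox. FIGLA is needed to form follicles and switches on the genes of the zona pellucida, the egg coat, and NOBOX drives genes of growing oocytes such as Gdf9.

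Depth, estimated from the spacing of low values, was about 45.8e6 to 72.6e6 reads per library. Setdb1 read 4.06, 2.55, 3.32 and 1.31 RPKM in the mutant libraries, against 19.9 to 52.5 RPKM in the 6 controls, low in every library labelled mutant, and the log2 difference of means was -3.20 (two-sided exact permutation test, p = 0.0048, the smallest that 4 against 6 libraries allow). Over the genes tested, limma with Benjamini-Hochberg adjustment found 604 of 11338 (5.33%) changed in mutant against all control libraries, 352 higher and 252 lower. With each library centred on its median the split was 303 higher and 339 lower. The 8 markers of oocyte identity were present in all libraries and none passed the test. Their summed level was 5315 to 5462 RPKM in mutant and 5161 to 7025 RPKM in control libraries. Of markers of other ovarian cells, none passed among the 7 tested of granulosa and cumulus cells. The 1 tested of theca and stroma, Hsd3b1, and the 5 tested of blood, immune and endothelial cells did not pass either. Granulosa and cumulus markers summed to 79.0 to 112 RPKM in mutants and 76.3 to 104 RPKM in controls over all 12 of the list, the 6 markers of theca and stroma to 0.857 to 3.90 RPKM in mutants and 0.757 to 3.35 RPKM in controls, and the 10 of blood, immune and endothelial cells to 22.1 to 42.7 RPKM in mutants and 29.9 to 46.8 RPKM in controls. Below 0.1 RPKM on average were 1 of the 12 granulosa and cumulus markers (Foxl2), 4 of the 6 of theca and stroma (Cyp17a1, Col1a1, Col1a2 and Pdgfra) and 5 of the 10 of blood, immune and endothelial cells (Ptprc, C1qa, Hba-a1, Hbb-b1 and Hbb-bs). Others of these lists were plainly present, with means over the 10 libraries of 65.6 RPKM for Serpine2, 12.9 for Nr5a2 and 7.23 for Cyp19a1 among the granulosa markers, and 17.6 for Pecam1 and 13.8 for C1qb among the last list. Their part in the results below was not tested. In a bulk pool, a smaller share of oocytes that hold an RNA and less of it per oocyte cannot be told apart.

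Of the 5 members tested, Nobox was higher in mutant oocytes and the other 4 did not pass the test, against 3.10% of all tested genes called higher and 2.22% called lower. Sohlh1 averaged below the level needed for a test over the 10 libraries. The median log2 change of the 5 was -0.50, beside 0.03 over all genes tested, and 2 of the 5 had an unadjusted p below 0.05, against 19.8% of all genes. The plot of the members' levels gives every library.

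**Figure D1:**
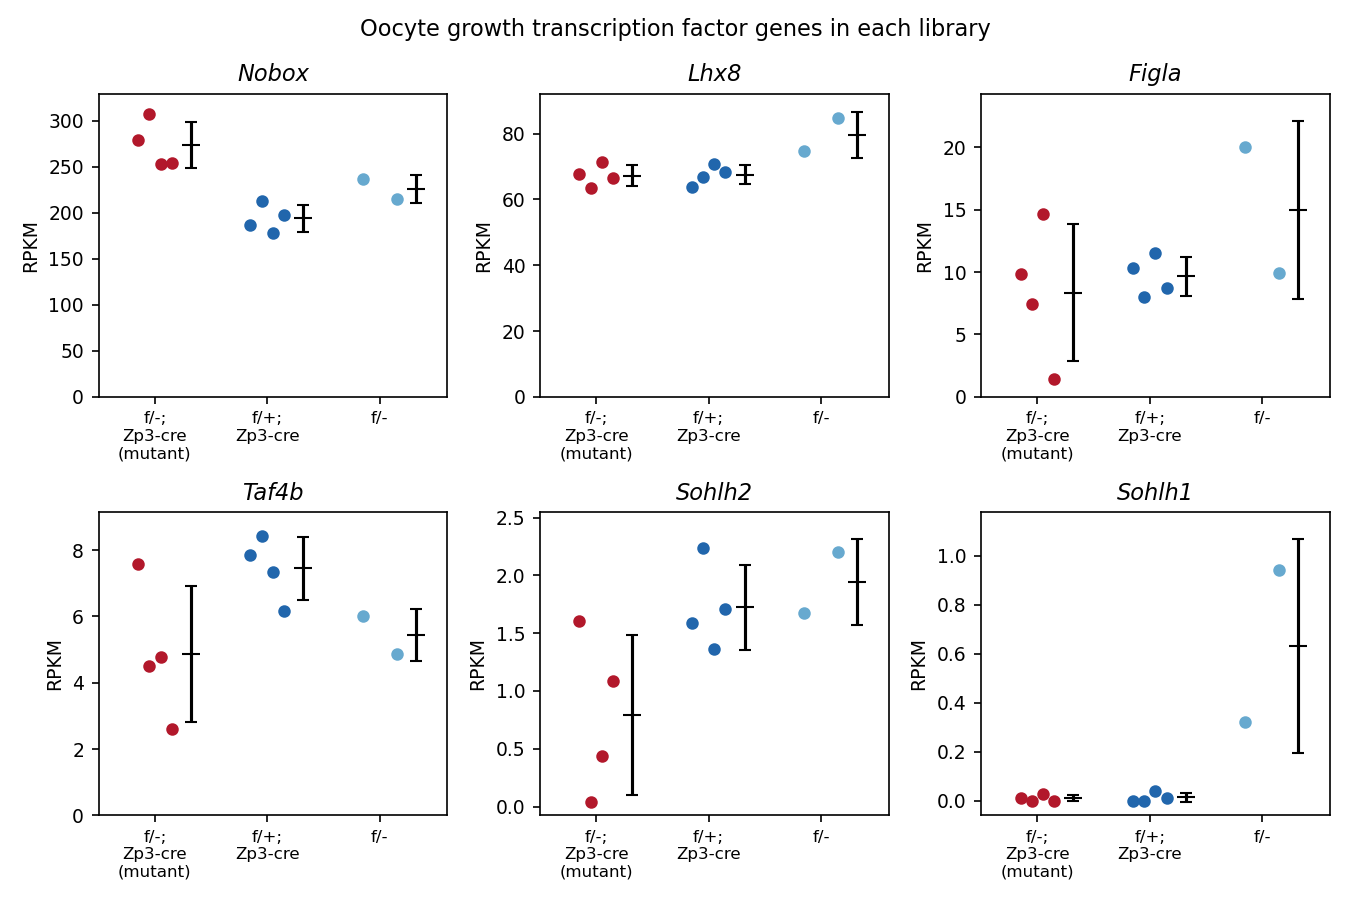
RPKM of the 6 genes (one panel each, y axis linear with its own range) in each library, in the order mutant (f/-; Zp3-cre, 4 libraries), f/+; Zp3-cre (4) and f/- (2); points are libraries in replicate order, and the dash and bar beside them are the mean and SD. All 4 mutant points of Nobox lie above all 6 control points. For Figla, mutant replicate 4 lies far below the other libraries. For Sohlh2, mutant replicates 2, 3 and 4 lie below all controls, with replicate 2 the lowest. Sohlh1 is above 0.3 RPKM in the 2 f/- libraries alone.

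Nobox (chromosome 6, 43303674 to 43309554, minus strand, in GRCm38 with GENCODE M21) was the most abundant of the 6 RNAs in every library. It read 279, 307, 253 and 255 RPKM in mutant oocytes, 187, 213, 178 and 197 RPKM in f/+; Zp3-cre oocytes and 237 and 215 RPKM in f/- oocytes. Every mutant value lay above every control value, which held for 4.62% of the genes tested. The mean was 274 ± 25.5 RPKM in mutant oocytes (SD, n = 4) and 205 ± 21.3 RPKM in control oocytes (n = 6), 1.34 times as much. On the log2(RPKM + 0.5) scale the change was 0.42 ± 0.10 (SE), with a 95% interval of 0.21 to 0.63 and an adjusted p of 0.023. By group mean Nobox ranked 62 in mutants and 96 in controls among the 24453 symbols.

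Set against each control genotype on its own, Nobox passed the test against f/+; Zp3-cre and not against f/-. Against f/+; Zp3-cre (194 ± 14.9 RPKM, n = 4) the log2 change was 0.49, with an interval of 0.29 to 0.69 and an adjusted p of 0.009, where 2.76% of all genes were called higher and 2.13% lower. Against f/- (226 ± 15.2 RPKM, n = 2) it was 0.27, with an interval of 0.03 to 0.52 and an adjusted p of 0.18, which did not pass, where 3.25% of all genes were called higher and 1.59% lower. The difference between the control genotypes, f/+; Zp3-cre minus f/-, was -0.22 (interval -0.47 to 0.02, adjusted p 0.41), and 0.0706% of all genes were called between them (3 higher and 5 lower). The counts that involve f/- rest on f/- replicate 1. Without it, 545 genes were called higher and 298 lower in f/+; Zp3-cre against f/-, and 998 higher and 489 lower in mutant against f/-, with the remaining f/- library assumed to vary like the other groups. The call of Nobox against all controls stood near its threshold. It was lost without mutant replicate 1 (adjusted p 0.064), mutant replicate 2 (0.076), f/+; Zp3-cre replicate 1 (0.061) or f/+; Zp3-cre replicate 4 (0.054), and adjusted p ran from 0.0048 to 0.12 over all alternatives.

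The window from 250 bases before to 50 after the annotated start of Nobox is printed because Nobox is the member that changed and encodes a factor placed downstream of the bHLH members. It spans chr6:43309505-43309804 on the minus strand (RefSeq, GRCm38.p6), with each match to CANNTG in capitals.
Nobox: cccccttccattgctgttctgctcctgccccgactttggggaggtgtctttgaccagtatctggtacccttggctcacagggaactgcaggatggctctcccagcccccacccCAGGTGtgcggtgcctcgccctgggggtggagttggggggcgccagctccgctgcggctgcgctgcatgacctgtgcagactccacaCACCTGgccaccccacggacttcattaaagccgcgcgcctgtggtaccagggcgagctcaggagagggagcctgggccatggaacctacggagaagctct
The script counted 2 E-boxes, at 137 and 50 bases before the start, and such a window with at least 1 is common, at 72.3% of 32851 mouse windows of this length. No match to the NOBOX element, searched as TAATTG or TAATTA on both strands, lay in these letters, while 12.4% of windows hold one.

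Lhx8 (chromosome 3, 154306294 to 154330659, minus strand) came next in abundance and was the steadiest of the 5 tested members over the Cre-carrying libraries. Its values were 67.6, 63.6, 71.3 and 66.4 RPKM in mutant oocytes, 63.9, 66.9, 70.8 and 68.4 RPKM in f/+; Zp3-cre oocytes and 74.8 and 84.6 RPKM in f/- oocytes. Mutant and f/+; Zp3-cre libraries covered nearly the same range. Both f/- libraries lay above all the rest, as they did for 2.86% of the 19291 genes with any value. The log2 change was -0.08 against all controls, with an interval of -0.30 to 0.13 (adjusted p 0.69), and -0.01 against f/+; Zp3-cre, with an interval of -0.21 to 0.19 (adjusted p 0.98). Against f/- it was -0.24 (interval -0.49 to 0.00, adjusted p 0.24), and f/+; Zp3-cre minus f/- was also -0.24 (adjusted p 0.37). The upper bound of Lhx8 against all controls, 0.13, lay below the lower bound of Nobox, 0.21.

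The levels of Nobox and Lhx8 were also set side by side within single libraries. The ratio of Nobox to Lhx8 was 4.13, 4.84, 3.55 and 3.83 in mutant libraries, against 2.52 to 3.19 in the 6 controls. Within a library such a ratio does not depend on the scaling by depth. It was formed after the values of both genes were known and was not tested. The ratio of Nobox to Sohlh2 was likewise 174 to 8119 in mutants and 95.5 to 141 in controls, with no overlap. The 8119, of mutant replicate 2, rests on about 5.0 reads of Sohlh2. Nobox by itself already lay above all controls in every mutant, so ratios without overlap are no separate evidence of its change. How many other genes would give ratios without overlap was not counted. The ratios of Nobox to Figla, 17.3 to 174 in mutants and 11.8 to 26.7 in controls, and to Taf4b, 36.9 to 98.3 and 23.8 to 44.1, overlapped between the groups.

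**Figure D2:**
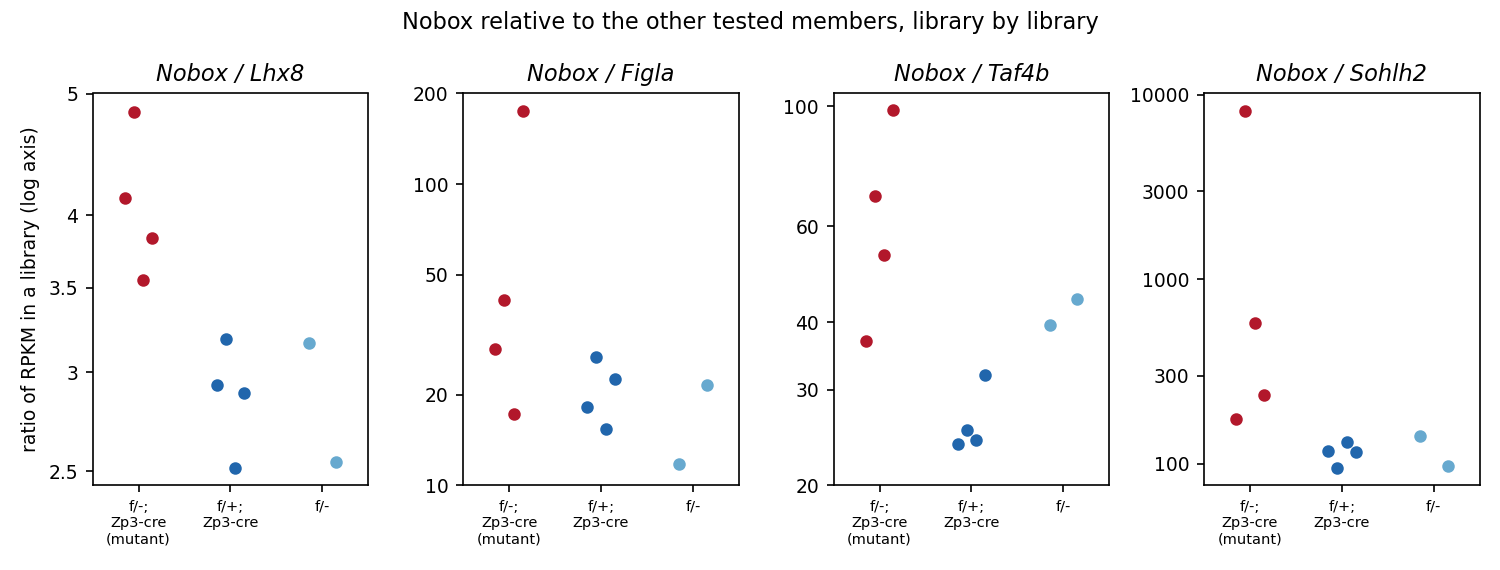
Ratio of Nobox RPKM to the RPKM of Lhx8, Figla, Taf4b and Sohlh2 in the same library (log axes, one panel each) for mutant (f/-; Zp3-cre), f/+; Zp3-cre and f/- libraries, each point a library. Mutant ratios to Lhx8 (3.55 to 4.84) and to Sohlh2 (174 to 8119) lie above all control ratios, and those to Figla and Taf4b overlap with the controls. The ratio of 8119 rests on about 5.0 reads of Sohlh2.

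Figla (chromosome 6, 86016171 to 86020996, plus strand) stood well below Lhx8 and varied widely between mutant libraries. Mutant oocytes had 9.87, 7.45, 14.6 and 1.46 RPKM, f/+; Zp3-cre oocytes 10.3, 8.0, 11.6 and 8.75 RPKM, and f/- oocytes 20.04 and 9.96 RPKM. The groups overlapped, and mutant replicate 4, with about 65.0 reads, was far below every other library. The log2 change was -0.70 against all controls, with a wide interval of -1.66 to 0.26 (adjusted p 0.42). Without mutant replicate 4 it was -0.08, and against f/+; Zp3-cre it was -0.52 with that library (adjusted p 0.63) and 0.10 without it. No change of Figla was detectable at this spread.

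Sohlh2 (chromosome 3, 55182028 to 55209957, plus strand) was a low RNA in all libraries and very uneven in the mutants. It read 1.61, 0.0379, 0.437 and 1.08 RPKM in mutant oocytes, 1.59, 2.23, 1.36 and 1.71 RPKM in f/+; Zp3-cre oocytes and 1.68 and 2.20 RPKM in f/- oocytes. Mutant replicates 2, 3 and 4 lay below all 6 controls, with about 5.0, 56.3 and 149.9 reads, and mutant replicate 1, with about 232.2 reads, lay among them. The mean was 0.791 ± 0.693 RPKM in mutants (n = 4) and 1.8 ± 0.349 RPKM in controls (n = 6). The log2 change was -1.0 ± 0.36 (SE), with an unadjusted p of 0.016 that did not pass adjustment (adjusted p 0.14), and -0.64 without mutant replicate 2. With a pseudocount of 0.1 it was -1.59 and with 2 it was -0.47, since the added constant weighs heavily on values this low.

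Sohlh1, whose protein pairs with that of Sohlh2, was at or near 0 in all Cre-carrying oocytes. Its values were 0.0127, 0, 0.0285 and 0 RPKM in mutants, 0, 0, 0.0412 and 0.0113 RPKM in f/+; Zp3-cre oocytes, and 0.321 and 0.941 RPKM in f/- oocytes. The 8 Cre-carrying libraries held about 0 to 3.0 reads each, where 3 reads correspond to 0.0338 to 0.0427 RPKM, while the f/- libraries held about 19.0 and 88.1 reads. No difference between mutants and f/+; Zp3-cre was detectable (exact permutation test, p = 1.0). Mutant minus f/- was -1.09 and f/+; Zp3-cre minus f/- was -1.08 on the log2(RPKM + 0.5) scale, each with a two-sided exact p of 0.067, the smallest that 4 against 2 libraries allow. With no filter on low values limma gave Sohlh1 an adjusted p of 0.02 for mutant against f/- and 0.074 for f/+; Zp3-cre against f/-. Both f/- libraries lay above the other 8 in 2.86% of the 19291 genes with any value, and by at least 5 times in 9 genes (0.0467%), of which Sohlh1 is 1, a comparison chosen after its values were seen.

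The start of Sohlh1 is printed because its RNA read higher in both f/- libraries than in all others, and because the bHLH members bind E-boxes. The difference between the control genotypes did not pass a test. The window spans chr2:25847199-25847498 on the minus strand (RefSeq, GRCm38.p6), with matches to CANNTG in capitals; the gene lies at chromosome 2, 25842995 to 25847248.
Sohlh1: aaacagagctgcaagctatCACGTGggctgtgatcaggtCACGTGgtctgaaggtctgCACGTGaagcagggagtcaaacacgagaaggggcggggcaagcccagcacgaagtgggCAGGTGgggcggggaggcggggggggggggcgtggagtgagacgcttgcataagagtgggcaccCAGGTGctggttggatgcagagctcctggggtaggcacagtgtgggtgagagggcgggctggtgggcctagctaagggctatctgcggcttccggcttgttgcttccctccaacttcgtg
It holds 5 E-boxes, of which 3 read CACGTG, a case of CANNTG that is the same on both strands. At least 3 of the form CANNTG occurred in 17.6% of the 32851 windows, at least 1 CACGTG in 7.15%, and at least 3 CACGTG in 29 windows (0.0883%). A match in these letters is no evidence of binding in these oocytes.

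Taf4b (chromosome 18), on the longest of the 6 transcripts, showed a lower mean in the mutants that did not pass the test. It read 7.57, 4.51, 4.77 and 2.59 RPKM in mutant oocytes, 7.86, 8.42, 7.36 and 6.18 RPKM in f/+; Zp3-cre oocytes and 6.00 and 4.88 RPKM in f/- oocytes. Mutant replicates 2, 3 and 4 lay below all controls and mutant replicate 1 lay among the f/+; Zp3-cre libraries. The log2 change was -0.50 against all controls (interval -1.06 to 0.06, adjusted p 0.31), -0.64 against f/+; Zp3-cre (adjusted p 0.22) and -0.22 against f/- (adjusted p 0.75). Without mutant replicate 4 the change against all controls was -0.27.

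**Figure D3:**
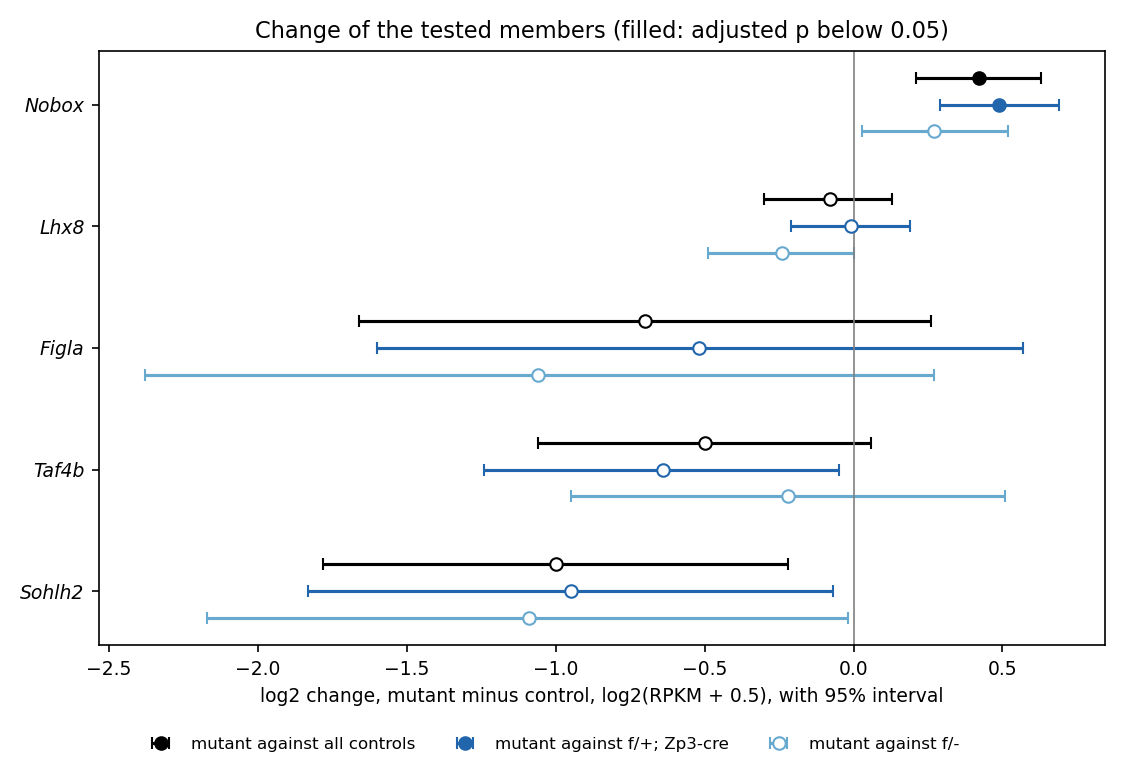
log2 change (x axis, log2(RPKM + 0.5), mutant minus control) of the 5 tested members with its 95% interval, against all 6 controls (black, upper), against f/+; Zp3-cre (dark blue, middle) and against f/- (light blue, lower); filled points passed an adjusted p of 0.05. Nobox lies to the right of 0 in all comparisons and passed against all controls and against f/+; Zp3-cre. Lhx8 lies near 0 against all controls and against f/+; Zp3-cre, and at -0.24 against f/-. Figla, Taf4b and Sohlh2 lie to the left with wide intervals. None of these 4 passed.

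The tested members also differed in how even they were. Between mutant libraries the SD of log2(RPKM + 0.5) was 1.29 for Figla, 0.87 for Sohlh2 and 0.57 for Taf4b, against 0.23, 0.23 and 0.18 between f/+; Zp3-cre libraries in the same order of genes. For Nobox it was 0.13 in mutants and 0.11 in f/+; Zp3-cre, and for Lhx8 0.07 and 0.06. Sohlh1, near 0 in both groups, had 0.04 in mutants and 0.05 in f/+; Zp3-cre. Figla, Sohlh2 and Taf4b were thus at least 3 times as uneven in the mutants as in f/+; Zp3-cre, as were 29.9% of all genes tested. The median SD over all genes was 0.39 in mutants and 0.19 in f/+; Zp3-cre. Between the f/- libraries (n = 2) this median was 0.39 as well, with 0.69 for Figla, 0.22 for Sohlh2 and 0.19 for Taf4b. A wide spread over all genes was therefore not particular to the mutants. The library that lay lowest was not the same throughout, since it was mutant replicate 4 for Figla and Taf4b and mutant replicate 2 for Sohlh2. Because these intervals rest on an SD shared between groups of unlike spread, they are less sure for Figla, Sohlh2 and Taf4b than for Nobox and Lhx8.

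RPKM are per length, which allows a rough order of levels between genes. Amplification can favour transcripts by length and GC content, and the members run from 759 to 5149 bases. Nobox, Lhx8, Figla, Taf4b, Sohlh2 and Sohlh1 followed one another from high to low in 8 of the 10 libraries. Taf4b stood above Figla in mutant replicate 4 and in f/+; Zp3-cre replicate 2, and the ranges of these neighbours overlapped in both groups, with means of 8.36 ± 5.49 RPKM for Figla and 4.86 ± 2.05 RPKM for Taf4b in mutants, and of 9.66 ± 1.60 RPKM for Figla and 7.45 ± 0.957 RPKM for Taf4b in f/+; Zp3-cre. All other neighbours kept their order in every library.

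Among 4036 named genes that averaged 10 RPKM or more, those whose log2 values ran most like a member's over the 10 libraries are given as a description, since the libraries share genotype, depth and amplification. Ccbl2, a kynurenine aminotransferase gene, had a Pearson r of 0.943 with Nobox, followed by Nrn1l (0.941) and the ribosomal protein gene Rps26 (0.935), whose processed copies make its level uncertain. Ccbl2 averaged 23.6 ± 6.58 RPKM in mutants and 4.55 ± 1.40 RPKM in controls and rose (log2 change 2.27, adjusted p 0.00016), a larger change than that of Nobox. Closest to Lhx8 were Ero1lb (0.923) and Txndc5 (0.905), which encode proteins of the endoplasmic reticulum, and Amz2 (0.892). Closest to Figla were Timm8b (0.934), Ubl7 (0.923) and Got1 (0.920), closest to Taf4b were Hspd1 (0.940), Msl3 (0.892) and Nlrp4b (0.890), and closest to Sohlh2 were Azin1 (0.948), Add3 (0.905) and Pcnx (0.901).

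Genes that act with the 6 factors were examined through lists of partners, target genes and related pathways. Over all tested genes 3.10% were called higher and 2.22% lower. Of the E proteins and ID proteins, which pair with bHLH factors or hold them off DNA, 4 of 7 were tested and none passed. Tcf12, an E protein gene, averaged 4.26 RPKM in mutants and 4.64 RPKM in controls (log2 change -0.16, adjusted p 0.78). The inhibitor gene Id2 averaged 1.16 and 0.638 RPKM (0.77, adjusted p 0.36), and Id3 averaged 1.62 and 1.90 RPKM (-0.62, adjusted p 0.62).

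Among cofactors of LIM domains, which are partners of LHX8 and its relatives, 1 of 7 tested genes rose and none fell. This was Lmo4, a LIM-only gene whose product competes for the adaptor LDB1. It read 26.0, 17.0, 22.3 and 24.0 RPKM in mutant oocytes, against 3.18 to 9.05 RPKM in the 6 controls, so the groups stood well apart. The log2 change was 1.97 ± 0.25 (SE, adjusted p 0.00033), and it passed under all 22 alternatives. Its relative Lmo1 averaged 28.6 ± 10.4 RPKM in mutants and 16.7 ± 3.11 RPKM in controls (0.70, adjusted p 0.085), and Ldb1 33.3 ± 3.60 and 25.8 ± 4.86 RPKM (0.38, adjusted p 0.19). The list's median log2 change was 0.45, beside 0.03 over all genes tested. Of the list 4 of 7 had an unadjusted p below 0.05, against 19.8% of all genes. Ssbp3 (-0.28) and Ssbp2 (-0.25) went the other way, neither past the test. The summed level of the list was 101 to 118 RPKM in mutant and 65.2 to 74.5 RPKM in control libraries. This sum includes Lmo4, and the sums of the other related lists overlapped between the groups.

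Of TFIID, TFIIA and the family of the TATA-binding protein, in whose company TAF4B works, 1 of 21 tested genes fell and none rose, with a median of 0.10. Taf9b, a paralog of Taf9, averaged 61.0 ± 6.12 RPKM in mutants and 79.1 ± 6.67 RPKM in controls (log2 change -0.37, adjusted p 0.049). This call sat on the threshold and passed under 10 of 22 alternatives. Leaving out any library but mutant replicate 1 or f/- replicate 1 ended it, with adjusted p of 0.05 to 0.13. Tbpl2, which encodes the TATA-binding protein variant of oocytes, averaged 11.7 ± 0.842 RPKM in mutants and 8.07 ± 2.45 RPKM in controls (0.55, adjusted p 0.15), and passed where the f/- libraries were left out (0.64, adjusted p 0.036). The Tbpl2 row used, that with the highest mean, is a RefSeq transcript classed as non-coding. With all rows of Tbpl2 summed the change was 0.57 (adjusted p 0.11). Taf7 averaged 40.7 and 34.2 RPKM (0.24, adjusted p 0.30).

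Among other transcription regulators of oocytes 1 of 13 tested genes rose and none fell, with a median of 0.09. Dynll1 and Stat3 have been used with Nobox, Figla, Lhx8 and Sohlh1 to turn mouse embryonic stem cells into oocyte-like cells. Dynll1 averaged 44.1 ± 5.15 RPKM in mutants and 30.2 ± 5.30 RPKM in controls (log2 change 0.55, adjusted p 0.040), and this call passed under 11 of 22 alternatives. Leaving out mutant replicate 1, 3 or 4 or f/+; Zp3-cre replicate 1, 2 or 4 ended it, with adjusted p of 0.083 to 0.11. Stat3 averaged 38.8 and 29.2 RPKM (0.42, adjusted p 0.16). The oocyte homeobox gene Obox5, which has close paralogs, averaged 164.5 and 197.6 RPKM (-0.25, adjusted p 0.19).

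Of 14 genes known as targets of the factors, all tested, 1 fell and 13 did not pass, with a median log2 change of -0.15. Zp2, a zona pellucida gene under FIGLA, averaged 346 ± 29.1 RPKM in mutants and 453 ± 85.3 RPKM in controls (-0.37, adjusted p 0.12). It passed under 1 of 22 alternatives, with each library centred on its median (-0.43, adjusted p 0.039). Rfpl4 averaged 354 and 408 RPKM (-0.20, adjusted p 0.28). Gdf9, a growth factor gene with NOBOX elements, changed by -0.23 (adjusted p 0.37) and Zp3 by -0.11 (adjusted p 0.56), neither past the test.

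The Zp3 window is printed because Zp3 is a FIGLA target and its promoter drives the Cre of the mutants. It spans chr5:135979855-135980154 on the plus strand (RefSeq, GRCm38.p6), with matches to CANNTG in capitals.
Zp3: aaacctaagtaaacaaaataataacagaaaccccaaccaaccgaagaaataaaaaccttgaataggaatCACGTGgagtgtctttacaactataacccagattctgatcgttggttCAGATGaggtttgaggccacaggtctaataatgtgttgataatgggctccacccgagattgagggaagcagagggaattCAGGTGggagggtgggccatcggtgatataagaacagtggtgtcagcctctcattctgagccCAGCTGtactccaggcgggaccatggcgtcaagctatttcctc
It holds 4 E-boxes, 1 of them CACGTG at 181 bases before the start.

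The target that fell was Kit, the receptor by which oocytes read KIT ligand from granulosa cells. Kit read 40.1, 34.1, 49.4 and 36.4 RPKM in mutant oocytes, against 66.6 to 79.8 RPKM in the 6 controls, with no overlap. The log2 change was -0.81 (adjusted p 0.00084), and it passed under all 22 alternatives. All 4 mutants lay below all controls in 3.56% of genes tested. In the pathway that wakes primordial follicles, which KIT feeds through phosphoinositide 3-kinase, Kit was also the 1 of 13 tested genes that passed, and the median was -0.07. Pik3ca averaged 5.59 RPKM in mutants and 7.87 RPKM in controls (-0.45, adjusted p 0.34) and Tsc2 3.02 and 2.25 RPKM (0.35, adjusted p 0.48).

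**Figure D4:**
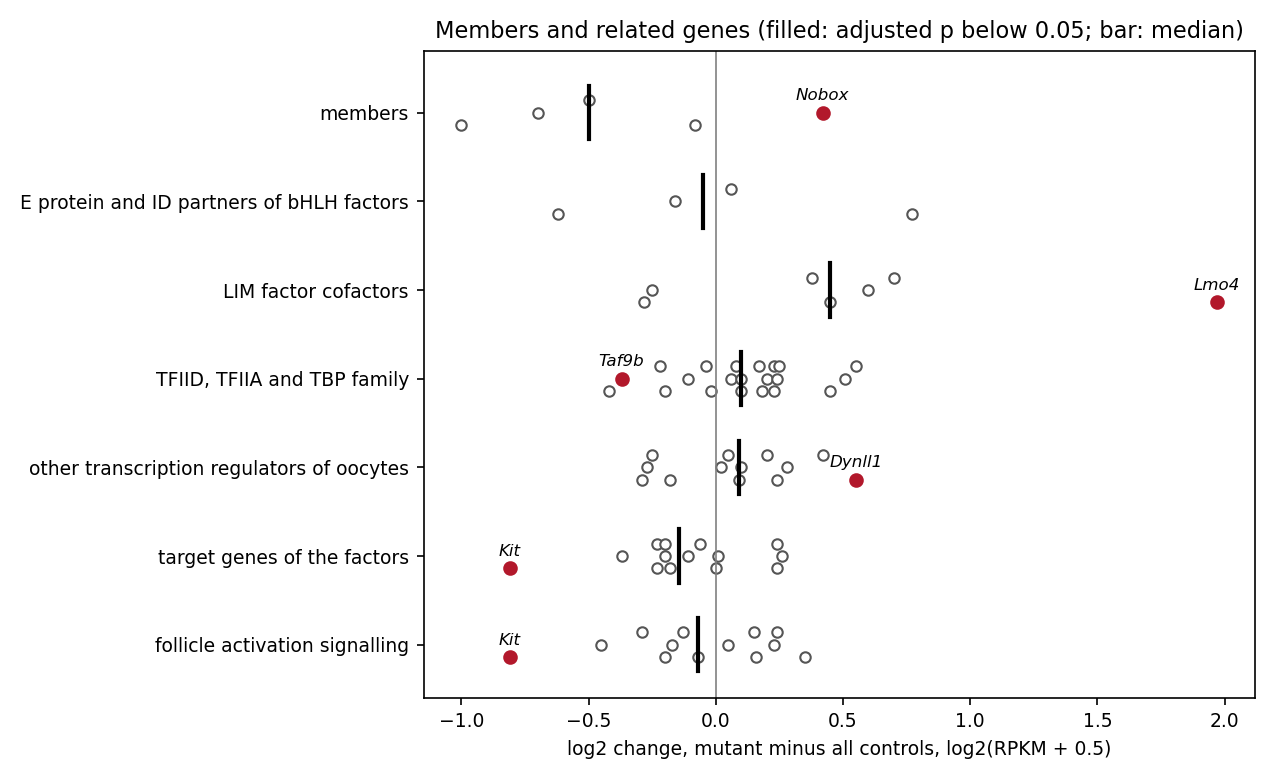
log2 change (x axis, log2(RPKM + 0.5), mutant minus all controls) of each tested gene of the member group and 6 related lists (rows), with list medians as bars and genes past an adjusted p of 0.05 filled and named. Nobox, Lmo4 and Dynll1 lie above 0 and Taf9b and Kit below, Kit being in 2 lists, and most other genes lie within 0.5 of 0.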

How the data were processed

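The authors deposited RPKM of 34768 RefSeq transcripts in 10 libraries. Per the labels' protocols, cDNA was amplified from total RNA by the NuGen Ovation system and libraries came from a TruSeq DNA kit, so reads carry no strand. Tools named in the submitters' processing notes are STAR and bcl2fastq 1.8.3, and the build is mm10. How reads were counted is not stated in these sources. Amplification from so few oocytes can add spread and favour transcripts by length and GC content. Read totals were estimated from the spacing of low values with GENCODE M21 lengths. From 67.1% to 71.3% of low values came within 0.1 of a whole read, so read numbers are approximate, and amplified reads are not independent molecules.

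A symbol was represented by its row with the highest mean. Symbols with a mean of at least 0.5 RPKM (11338) were tested on log2(RPKM + 0.5) with limma 3.58.1 in R 4.3.3 (empirical Bayes with trend, Benjamini-Hochberg over all tested genes, threshold 0.05). The model of mutant against all 6 controls had 2 levels, and comparisons with a single control genotype came from a model of 3 groups with a shared spread. All adjusted p-values are from limma. The constant of 0.5 shrinks the changes of low genes. Setdb1, as a check of the labels, and Sohlh1, which was below the filter, had two-sided exact permutation tests (scipy 1.17.1) of the mean difference. The limma step was checked on simulated data in which a gene had the same spread in all libraries. That check does not cover the unlike spread of mutant and f/+; Zp3-cre libraries. Each library is a separate mouse.

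The members and gene lists were chosen with earlier results of these data known. Named genes are the members, Setdb1, every list gene past the threshold (where fewer than 3 passed, the 3 with the smallest p), and for each tested member the 3 genes with the highest correlation. Zp3 and Gdf9 were named besides as sequence source and textbook target, after their values were seen. Of the marker lists, Serpine2, Nr5a2, Cyp19a1, Pecam1 and C1qb were picked for their means, and others for a mean below 0.1 RPKM. Hsd3b1 was named as the only tested gene of its list. Taf4a of the list was matched through its RefSeq synonym. Alternatives were the pseudocount, scaling, filter, spread estimate, library weights, choice of rows, replicate block, threshold, controls used and leaving out each library, and, chosen after seeing the data, removal of length and GC trends.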

Additional observations from a re-analysis of the deposited data

Results flagged for a closer look

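In 4 cases a library stood apart from the other 3 of its group by Dixon's criterion, among 78 groups of 4 libraries examined, where chance alone marks about 1 in 20. Setdb1 was 52.47 RPKM in f/+; Zp3-cre replicate 4, against 25.1 to 28.6 RPKM in the other 3 libraries of that genotype. Obox5 was 250.6 RPKM in f/+; Zp3-cre replicate 3, the highest of a group with a median of 197 RPKM. Amz2 was 10.06 RPKM in the same library, the highest of a group with a median of 7.72 RPKM. Nlrp4b was 50.31 RPKM in mutant replicate 4, the lowest of a group with a median of 70.4 RPKM. No member was marked in this way, Figla in mutant replicate 4 included.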

How the results depend on the processing

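The log2 change of Nobox against all controls was 0.36 to 0.49 under every alternative. At 0.42 it missed the threshold with no filter on low values, with no trend in the spread and at a threshold of 0.01, and 0 members were then called. Leaving out a library in turn gave 0.36 to 0.46, and 0 to 1 members called. Against f/+; Zp3-cre the Nobox call passed in 20 of 21 alternatives and was lost with no trend. Of the other members, Sohlh1 passed against f/- with no filter on low values (-1.09, adjusted p 0.02), and no further call arose in the alternatives run. Signs turned only for changes that had not passed, and the cause was not tested. With library weights Lhx8 was 0.03, Id3 0.05, Timm8b 0.19, Ubl7 0.03, Txndc5 0.01 and Amz2 0.05 against all controls, and Lhx8 was 0.05 against f/+; Zp3-cre. Without the f/- libraries Txndc5 and Amz2 were 0.00, and with length and GC trends removed Lhx8 against f/+; Zp3-cre was 0.01. Leaving out a library gave -0.30 to 0.08 for Tcf12 and -0.38 to 0.16 for Timm8b against all controls, -0.89 to 0.10 for Figla and -0.03 to 0.02 for Lhx8 against f/+; Zp3-cre, -0.45 to 0.01 for Taf4b against f/-, and -0.30 to 0.02 for Sohlh2 in f/+; Zp3-cre against f/-, where a lone f/- library is assumed to vary like the other groups.

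Genes called higher numbered 807 with library weights and 149 at a threshold of 0.01. Genes called lower numbered 150 with no filter, 581 with library weights, 385 without the f/- libraries, 63 at a threshold of 0.01 and 119 to 356 on leaving out a library, with 119 to 167 without mutant replicate 1 or 4 or any single f/+; Zp3-cre library. Same-numbered libraries deviated together in none of 8 pairs (correlations -0.046 to 0.031). Such correlations cannot show whether mice of the same number were handled together. In f/-, the deviations of the 2 libraries mirror each other by construction. With the replicate block, Nobox was 0.45 (adjusted p 0.029), Taf4b against f/- 0.00, and 140 genes were called lower. A filter at a mean of 2 RPKM leaves Sohlh2 without a value. Depth limits Sohlh1, at 0 to 3.0 reads in 8 libraries.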
